A study of Mus musculus with 2 samples.

Results

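Very long introns were taken as every splice junction, in either of 2 deposited junction lists, whose intron spans 100 kb or more. Of 131057 junctions in either list, 453 met this rule, 347 of them listed for IL-10 and 366 for untreated cells. Male C57BL/6JJcl mice, an inbred strain, gave the cells: macrophages drawn into the peritoneum by thioglycolate and kept by adherence. They were treated with interleukin 10 (IL-10), a cytokine that restrains inflammatory gene expression, at 100 ng/ml for 4 h, or were left untreated. Each group is 1 library. Groups follow the sample titles, since the deposited culture text is the same for both and describes the treatment. How many animals were pooled is not given in the sources used here. With 1 library in each group there is no replicate check and no p-value. Intervals at the 95% level cover counting error only, and PCR copies were not removed by molecular identifiers.

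An intron is removed when the spliceosome joins the donor site at the end of an exon to the acceptor site at the start of the next. In very long introns these sites lie far apart, and the polymerase needs a long time to reach the acceptor. Several of the largest genes lie at fragile sites, where chromosomes break under replication stress. A spliced read can also be placed across a long distance when tandem gene copies, called paralogs, share exon sequence, because an aligner may pair an exon of 1 copy with an exon of the next.

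The exon joints show what a read across these junctions looks like. Sequences are from GENCODE M21 transcripts (GRCm38 build), each with 15 bases before and 15 after the joint, and the coordinates are the mm9 introns of the junction lists. The first set gives 6 annotated long introns inside coding sequence, at chr11:34212558-34338274 (Dock2, minus strand), chr13:20541476-20656292 (Elmo1, plus), chr5:32203538-32303733 (Babam2, plus), chr15:64040119-64143910 (Asap1, minus), chrX:126862598-126995406 (Diaph2, plus) and chr16:52310026-52452505 (Alcam, minus).
Dock2: gatcacgctttgattagtcactttgtggcg
Elmo1: gaagacttcaacaaggtaatgcaggtggtg
Babam2: accccgaattgagcatgcactcggaggctc
Asap1: acgctgctggaggaggctctagaccaagat
Diaph2: ttccaagaaatccagataacagacggcccc
Alcam: cggtcctcagaccaggccttggatggtaca
No bases are in capitals here, since nothing is compared within these joints.

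The second set shows a long intron with a pair of donors. At Chst11 (chr10:82448728-82554813, plus), the list held another junction with the same acceptor and a donor 15 bases upstream (chr10:82448713-82554813). Capitals mark the exon bases that the upstream donor leaves out. They begin with GT, the usual opening of an intron, and their number is a multiple of 3, so the reading frame is kept.
Chst11 annotated donor: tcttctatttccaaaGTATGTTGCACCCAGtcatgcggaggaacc
Chst11 upstream donor: tcttctatttccaaatcatgcggaggaacc

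The third set shows links between paralogs, chosen because they range from identical to clearly different joints. Capitals mark the bases at which the joints of the 2 genes differ, and the linked joint carries the donor gene's bases before the joint and the acceptor gene's bases after it. The links lie at chr12:56202911-56353758 (Srp54a to Srp54c), chr13:100949424-101206377 (Naip1 to Naip2), chr3:15417194-15748340 (Sirpb1c to Sirpb1a) and chr17:35403672-35580293 (H2-D1 to H2-Q7).
Srp54a own joint: tcagcaaactccttggaatgggtgatattg
Srp54c own joint: tcagcaaactccttggaatgggtgatattg
Naip1 own joint: tacctatggtatcagcttactgcaaCgaca
Naip2 own joint: tacctatggtatcagcttactgcaaTgaca
Naip1 to Naip2: tacctatggtatcagcttactgcaaTgaca
Sirpb1c own joint: ttctgggaCttaaaggagcagctAtgagag
Sirpb1a own joint: ttctgggaTttaaaggagcagctGtgagag
Sirpb1c to Sirpb1a: ttctgggaCttaaaggagcagctGtgagag
H2-D1 own joint: TCCGAGATTGtAAagcGtgaagacagctgc
H2-Q7 own joint: GTGCTCCAGCtCCagcAtgaagacagctgc
H2-D1 to H2-Q7: TCCGAGATTGtAAagcAtgaagacagctgc
Over these 30 bases the 2 Srp54 genes differed at 0 positions, the Naip pair at 1, the Sirpb1 pair at 2 and the H2 pair at 13.

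The 453 long junctions fell into 5 classes. Annotated introns made up 150, in 132 protein-coding genes, and carried 2801 reads (149 with the Fam172a pair counted once). Junctions that link paralogs numbered 155, in 22 gene families, and carried 7155 reads. A further 11 lay within 1 gene but matched no annotated intron (48 reads), 80 had 1 end in a named gene (992 reads) and 57 had no end in a named gene (1318 reads). No long junction linked 2 unrelated genes under this naming, whose limit on offsets was set after the data were seen. With every offset of a gene allowed to name an end, 107 junctions linked different genes and 103 of them paralogs. With ends named by annotated gene extents, a rule added after the data were seen, paralog links rose to 177 and 1 junction of 2 reads joined Eef2, a translation elongation factor gene, to Pip5k1c, a lipid kinase gene.

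Long junctions were annotated less often than short ones. Of the junctions under 10 kb, 82.9% matched an annotated intron, against 69.2% from 10 to 50 kb, 63.6% from 50 to 100 kb and 33.1% from 100 kb up. A match needs the same length in mm9 and GRCm38, and the part of length changes between the builds in these shares was not tested. All long junctions held 0.162% of the IL-10 library's 3998954 junction reads and 0.144% of the untreated library's 4035991. The annotated ones held 0.0345% and 0.0352%.

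**Figure D1:**
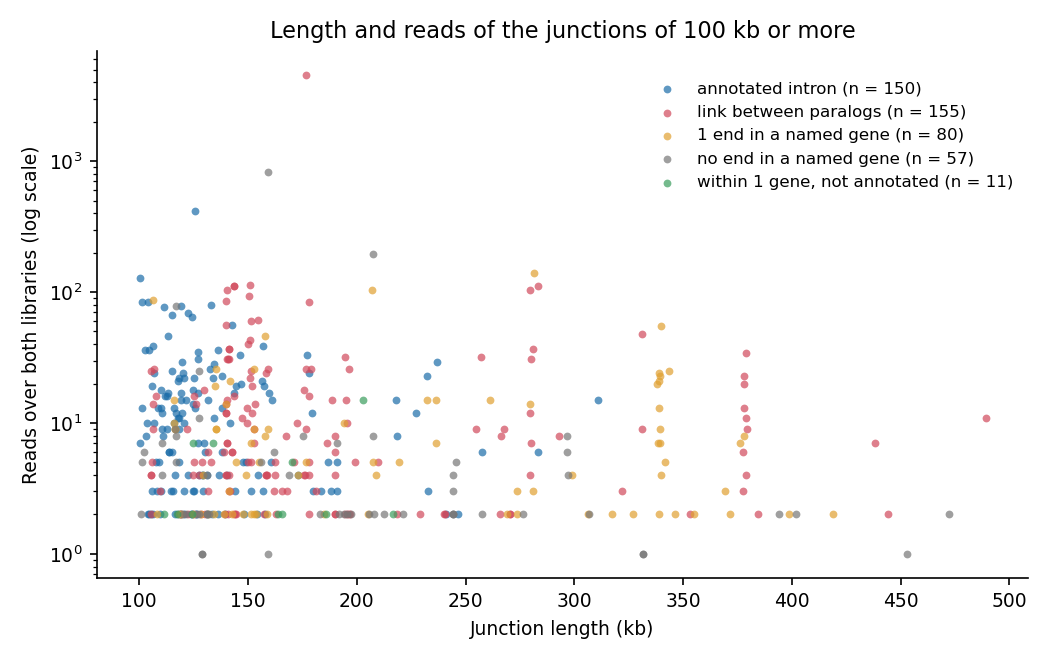
Length of each junction of 100 kb or more (x axis, kb) against its reads over both libraries (y axis, log scale), coloured by class, 1 point a junction. Annotated introns lie mostly at the short end, while the paralog links form columns at the spacing of their gene copies, with the H2-D1 to H2-Q7 link highest.

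Annotated long introns had a median length of 124.9 kb, and 118 of the 150 were under 150 kb. The 11 introns of 200 kb or more all had few reads. The longest, 310.9 kb in Smyd3 (a lysine methyltransferase gene, chr1:181024534-181335413), had 10 reads with IL-10 and 5 without. The most reads of these 11, 7 and 22, were on the 236.8 kb intron of Ext1, whose enzyme builds heparan sulfate chains. Lrmda had 2 such introns in a row, of 232.1 kb with 9 and 14 reads and of 227.2 kb with 4 and 8. Bcas3 (217.8 kb) had 6 and 9 reads. A further 5 had at most 6 reads over both libraries, namely Cmss1 (283.1 kb, 4 and 2), the adhesion gene Cadm1 (257.5 kb, 2 and 4), the Notch coactivator gene Maml3 (246.6 kb, 0 and 2), the ubiquitin-conjugating enzyme gene Ube2e2 (241.1 kb, 0 and 2) and the phospholipase gene Plcb1 (232.5 kb, 0 and 3).

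Around the threshold, the 5 junctions just above were those of Chchd6 (100113 bases, 3 and 4 reads), Babam2 (100196), a junction that matched no annotated intron and lies within Zeb1 by gene extents (100959, 0 and 2), the transcription factor gene Etv6 (101146, 9 and 4) and Gng12 (101214). The 5 just below, from 99249 to 99611 bases, matched no annotated intron and had between 2 and 9 reads over both libraries.

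Many annotated long introns of expressed genes were not listed. Among genes with at least 20 junction reads, basic protein-coding transcripts hold 292 annotated introns of 100 kb or more in the GRCm38 annotation, and 127 (43.5%) were listed. The same share was 57.7% of 979 introns from 50 to 100 kb, 73.0% of 8237 from 10 to 50 kb and 85.1% of 103831 under 10 kb. Within the long class it was 118 of 244 from 100 to 200 kb, 9 of 40 from 200 to 500 kb and 0 of 8 from 500 kb up. In genes with at least 200 reads the long class reached 52.8% (67 of 127), against 91.7% under 10 kb. No junction of either list was longer than 489.1 kb. Whether the alignment set an upper limit on intron length is not known here, so the 0 of 8 is not read as a result. These 8 introns are also part of the 292. Listing itself changes at 50 kb, since lone-read junctions were 26.5% and 27.5% of those from 10 to 50 kb and 0.376% and 0.364% from 50 to 100 kb. Listed shares are therefore not comparable across that length. The totals hold the introns of every basic transcript of these genes, whichever transcripts the cells used. An intron counted as listed only where its mm9 length equalled its GRCm38 length, so one whose length differs between the builds counted as not listed. At Msi2, for example, a junction of 170102 bases lay at the ends of an annotated intron of 122290. The part of such length changes in the listed shares was not tested.

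The median annotated long intron had 10 reads over both libraries, and 38 of the 150 had at least 20. The median was also 10 for annotated introns of 50 to 100 kb, so listed long introns did not stand apart in reads from that class. It was 9 from 10 to 50 kb and 14 under 10 kb. Junctions with a lone read are mostly missing from 50 kb up, so medians on either side of that length are not comparable. The intron of Dock2, a guanine nucleotide exchange factor that activates Rac in blood cells, stood far above the rest with 225 reads under IL-10 and 194 in untreated cells. Babam2, a subunit gene of deubiquitinase complexes that contain BRCC36, had 55 and 72. Gng12, a G protein gamma subunit gene, had 43 and 41, and Asap1, an activator of Arf GTPases, 41 and 43. Dock2 therefore held more reads than the next 3 introns together, and in each of these 4 genes the Poisson intervals of the libraries overlapped.

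Several of the most-read introns belong to genes with roles in the actin cytoskeleton. Elmo1, the partner of Dock proteins in Rac activation, had 34 reads with IL-10 and 33 without. The formin gene Diaph2 had 45 and 35, and Abr, a regulator of Rac, 23 and 23. Arhgap24, a Rac GTPase-activating protein gene, had 17 and 16 in its 177.1 kb intron and 8 and 8 in its 111.8 kb intron, and the formin gene Fmnl2 had 15 and 6. Of the 20 genes on the list of actin regulators, all had reads, 19 had at least 20 over the whole gene and 6 had a long intron, Diaph3 (0 and 3 reads) being the sixth. Abr is not on that list, and 4 of the 20 most-read introns are in genes that are (Dock2, Elmo1, Diaph2 and Arhgap24). On the reads of all listed introns of a gene, 0 of the 19 were called different between the libraries, under the rule given with the library comparison. Of all 8598 genes with at least 20 reads, 1.74% were called higher and 1.54% lower, so 0 of 19 is near that background.

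Other introns among the most read belong to genes of several functions. The scavenger receptor gene Colec12 had 27 and 51 reads, the lipid hydrolase gene Aig1 43 and 34, and the splicing regulator gene Mbnl1 32 and 37. Cdk14, a cyclin-dependent kinase gene, had 42 and 23. The adhesion molecule gene Alcam had 24 and 32, and Fam172a 21 and 18. Colec12 was lower and Cdk14 higher in the IL-10 library by less than 2-fold. The last of the 20 were Nsmce2 (14 and 22), Ldlrad3 (16 and 20), the heparan sulfate sulfotransferase gene Hs2st1 (20 and 16), the methionine sulfoxide reductase gene Msra (14 and 21) and Trappc9 (14 and 19).

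**Figure D2:**
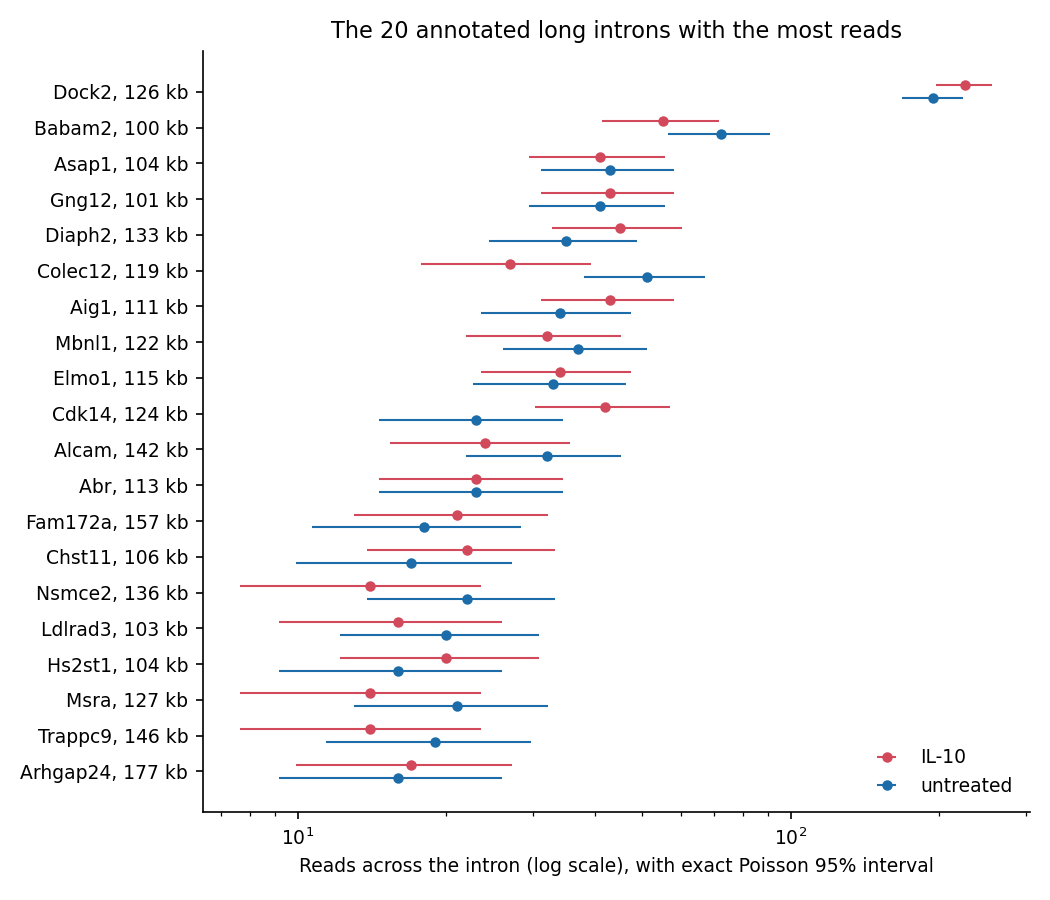
Reads across the 20 annotated long introns with the most reads (x axis, log scale), for IL-10 (red) and untreated cells (blue), with the exact Poisson 95% interval of each count. Dock2 stands apart with 225 and 194 reads, and the intervals of most pairs overlap.

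At Chst11, a chondroitin sulfotransferase gene, the upstream donor printed above was used more than the annotated one in both libraries. The upstream donor had 55 reads with IL-10 and 32 without, and the annotated donor 22 and 17. Of all reads at the acceptor, 69.0% (both libraries) came from the upstream donor and 31.0% from the annotated one. The upstream junction stood at a ratio of IL-10 to untreated of 1.74 (95% interval 1.10 to 2.77) and the annotated one at 1.31 (0.662 to 2.62), so the intervals overlap. The difference between these ratios was not tested.

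More than 1 long intron was found in 17 genes, or in 16 with the Fam172a pair counted once. The Fam172a junctions have the same length, lie 4 bases apart and had 21 and 18 reads and 0 and 3 reads, so an exact match at 1 offset can hold for only 1 of them. The exocyst gene Exoc4 had 12 and 12 reads on its 177.9 kb intron and 8 and 5 on its 137.9 kb intron. The adaptor gene Pid1 had 8 and 14 reads on its 125.0 kb intron and 9 and 13 on its 120.7 kb intron. In Exoc4 and Pid1 the long introns are neighbours in the gene. Enox2 had a pair with the same acceptor and donors 11 bases apart, of 118060 bases (7 and 15 reads) and 118071 bases (2 and 3).

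The lists of genes with known long introns gave these counts. Of 27 giant genes at fragile sites, 16 had reads, 8 had at least 20 and 7 had a listed long intron. Among them were Exoc4, Lrmda, the demethylase gene Fto (6 and 11), the transcription factor gene Foxp1 (3 and 4), Gphn (2 and 2) and Wwox (0 and 3). In 4 clusters of alternative first exons (66 genes), the genes of a cluster share introns, so reads on these do not tell which gene was used. The Pcdhg cluster had 3 listed introns (14 and 9 reads), 2 of them shared, and the Ugt1a cluster 8 (257 and 273 reads), of which 4 shared introns held 240 and 258 reads. In these clusters long introns were listed for Ugt1a7c alone, a glucuronosyltransferase gene, with 10 and 7 reads (119.1 kb) and 5 and 7 reads (119.7 kb). The 4 Ugt1a introns that belong to a single gene had 17 and 15 reads in all, so the long introns held most of these. Of 20 transcription factors of macrophages, 4 had a long intron. They were Mitf (9 and 13), Tcf4 (2 and 7), Runx1 (0 and 7) and Foxp1. Of 20 kinases and phosphatases, 4 did, namely Prkcb (13 and 15), Camk1d (4 and 8 over 2 introns), Prkce (3 and 0) and Pde7b (2 and 2 over 2 introns). On gene totals none of the fragile-site genes, first exon genes or transcription factors was called. Of the 16 kinases and phosphatases with enough reads 1 was called higher and 1 lower, against 1.74% and 1.54% of all 8598 genes. The gene called higher was the phosphodiesterase gene Pde4d, with no listed long intron and 22 and 8 reads (ratio 2.77, 1.19 to 7.21). The gene called lower was Camk1d, with 18 reads with IL-10 and 48 without over all its introns (ratio 0.379, 0.207 to 0.663).

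Long introns lay early in their transcripts. The intron was the first of its transcript in 55 of 150 (36.7%) and the second in 33 (22%), against 8.45% and 8.43% of 98690 annotated introns under 10 kb. At 50 to 100 kb the shares were 36.6% and 19.1%, so the position of the very long introns resembled that of the next length class. Coding sequence lay on both sides in 132 of the 150, 17 lay in the 5′ untranslated part and 0 in the 3′ untranslated part. The exon ended in AG in 60% of joints (56.4% under 10 kb) and the next exon began with G in 44.7% (49.2%). Of the 132 introns inside coding sequence, 37.9% fell between codons, 44.7% after the first base of a codon and 17.4% after the second, against 47.2%, 30.1% and 22.6% under 10 kb.

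Most annotated long introns with at least 20 reads were the only listed partner of their splice sites. That minimum favours introns with a high share at their sites, and lone-read partners of 50 kb or more are mostly missing from the lists. Other length classes were not compared. Of the 38 annotated long introns with at least 20 reads, 26 took all reads at their donor and 26 all reads at their acceptor. Under 50% of the reads at the donor went to 2 of them and under 50% at the acceptor to 4. Mbnl1 was low at both, with 33.0% of the reads at its donor and 20.8% at its acceptor. Rbms1, an RNA-binding protein gene, had all reads at the donor of its first intron but 20.7% of those at the acceptor, with 13 reads with IL-10 and 11 without. Gramd1b had 22.8% at its acceptor (12 and 9 reads). These 3 introns and that of Chst11 are the first of their transcripts and share their acceptor with other donors.

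Reads on a long intron were compared with the median of the other listed introns of the same gene. In genes whose other introns had a median of at least 20 reads, a limit added after the data were seen, the 48 listed long introns stood at a median of 0.424 of that value, and 25 were below 0.5. The median was 0.942 for 39405 introns under 10 kb, 0.609 for 2836 from 10 to 50 kb and 0.571 for 245 from 50 to 100 kb. Position moved with this value. First introns stood at 0.265 (22 long introns), 0.349, 0.390 and 0.381 in order of falling length, and later introns at 0.619 (26 long introns), 0.779, 0.807 and 1. First introns thus stood below later introns in each length class, and the part of transcript choice in these values was not tested.

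The value depends on where the limit on reads is set. Among the 38 long introns that themselves had at least 20 reads, the median was 1.65. With the same limit, introns under 10 kb stood at 1.63, those from 10 to 50 kb at 1.47 and those from 50 to 100 kb at 1.73. This limit selects introns by the reads that form the ratio, which favours high values in every length class. A median above 1 is therefore not a result on long introns. Dock2 stood at 3.10 of its gene's median (63 reads with IL-10 and 66 without) and Gng12 at 3.65. Below 0.5 stood 6 of them, among them Alcam at 0.318, Msra at 0.244, Chst11 at 0.235 and Rbms1 at 0.203. The Chst11 value counts the annotated donor alone, without the 55 and 32 reads of the upstream donor. Rbms1 shares its acceptor with other donors. The highest, Cradd at 10, rests on 11 and 9 reads against 2 and 0 on its only other intron.

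**Figure D3:**
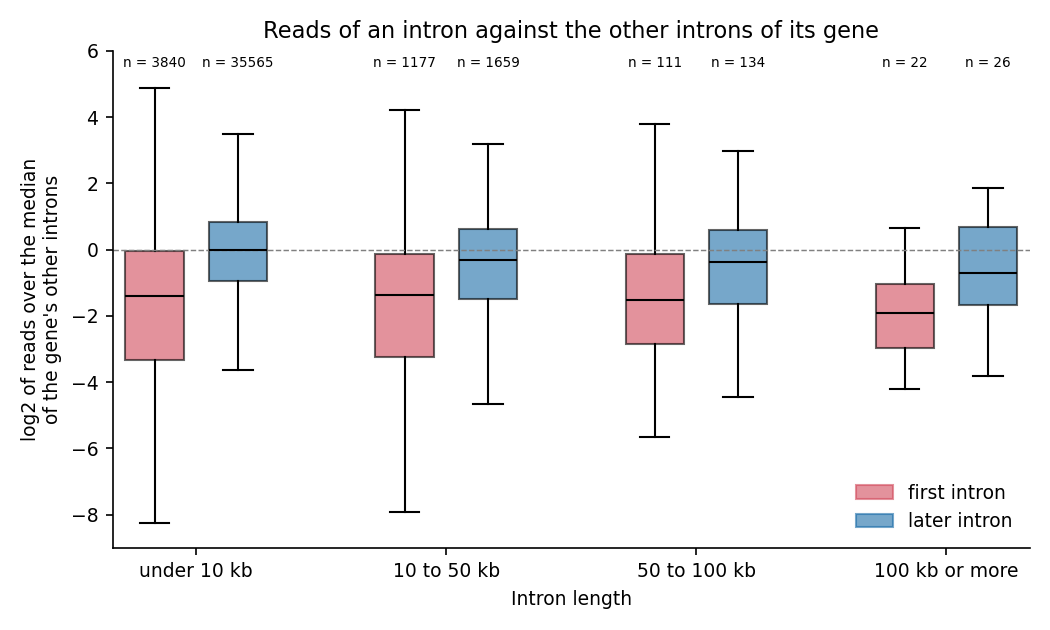
Reads of each listed annotated intron over the median of the other introns of its gene (y axis, log2), for genes whose median is at least 20 reads, by intron length (x axis) and by position, with first introns in red and later introns in blue. Boxes span the quartiles with the median as a line, whiskers reach 1.5 times the quartile range, and outliers are not drawn. First introns lie below later introns in every length class, and the long introns lie lowest in each position.

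The shorter aligned block is the smaller of the exon lengths covered on the sides of a junction. It was 53 bases for IL-10 and 52 for untreated cells at the median of the annotated long introns, as for all junctions (53 in each), and never under 22 and 26. Paralog links had medians of 44 and 43 with a smallest value of 13. Junctions with 1 named end had 40 and 39, and those with no named end 27 and 28. A shorter block of at least 20 bases was reached by all annotated long introns in both libraries, by 92.8% and 85.9% of the paralog links and by 83.9% and 72.7% of the junctions with no named end. The 11 junctions within 1 gene had medians of 52 and 43 and, like the annotated introns, no value under 20.

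**Figure D4:**
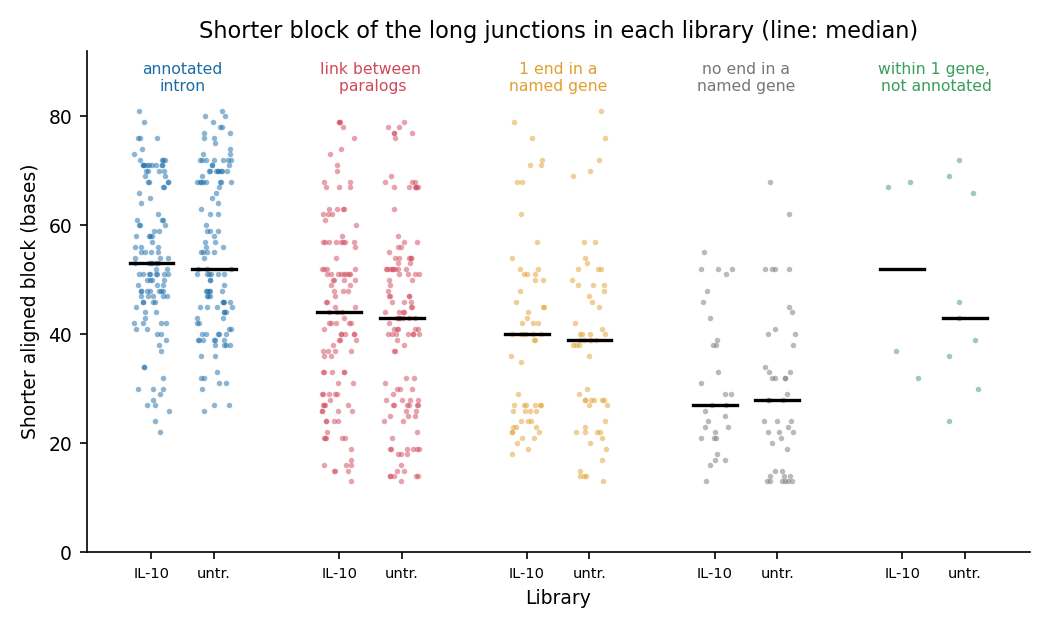
Shorter aligned block (y axis, bases) of each long junction in each library (x axis), by class, 1 point a junction, with the median as a line. The annotated introns have no value below 22 bases, while the paralog links and the junctions with fewer named ends reach down to 13.

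Of the 453 long junctions, 260 (57.4%, exact interval 52.7 to 62.0) were in both libraries, against 67.8% of all junctions. The share was 67.3% for annotated introns and 63.2% for paralog links. It followed the reads, with 25 of 51 annotated introns of 3 to 9 reads in both libraries and all 76 of those with 10 or more. The lists treat long and short junctions differently at low counts. Junctions with a lone read made up 28.2% and 29.3% of those from 40 to 50 kb in the IL-10 and untreated library, but 0.722% and 0.714% from 50 to 60 kb and 0.288% and 1.64% from 100 kb up. Shares in both libraries are therefore not comparable between junctions on either side of 50 kb at low counts.

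Between the libraries, annotated long introns as a group were alike, with 1381 reads with IL-10 and 1420 without (ratio 0.982 over library totals, 0.911 to 1.06). Calls needed 20 or more reads (both libraries summed), a 2-fold difference in either direction and an interval without 1. Of the 38 annotated long introns with enough reads, 0 were called higher and 1 lower, and of all 92 long junctions with enough reads 1 was called higher and 4 lower. Among all 44255 junctions with that many reads, 3.05% were called higher and 2.06% lower, and among annotated junctions of 20 to 99 reads 3.66% and 2.57%. The annotated introns do not stand out from this background. The median log2 ratio was -0.07 for the annotated introns and 0.01 for all junctions. In such bulk samples, fewer cells of a type and less RNA per cell cannot be told apart.

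The annotated intron called lower was that of Ext1 (chr15:52939127-53175956, intron 1 of 10), with 7 reads under IL-10 and 22 in untreated cells (ratio 0.321, 0.116 to 0.778). The other introns of Ext1 summed to 207 and 171 reads (1.22), so the long intron and the rest of the gene lay on opposite sides of 1. Intervals that excluded 1 without reaching 2-fold were found for Colec12 (0.534, 0.322 to 0.868) and Cdk14 (1.84, 1.08 to 3.21). The other introns of Colec12 had 87 and 79 reads (1.11) and those of Cdk14 266 and 201 (1.34). The interval of Cdk14 holds the value of its gene and that of Colec12 does not. Of the 38 introns, the interval held the ratio of the gene's other introns in 33 and no such ratio could be formed for Cradd. The exceptions were Dock2 (1.17, 0.962 to 1.43, against 0.928), Colec12, Nsmce2 (0.642, 0.304 to 1.31, against 1.32) and Ext1. In these comparisons the ratio of the other introns was taken as a fixed value, without its own counting error. Runx1 had 0 reads with IL-10 and 7 without on its long intron, which is under the minimum, while its other introns had 101 and 75.

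**Figure D5:**
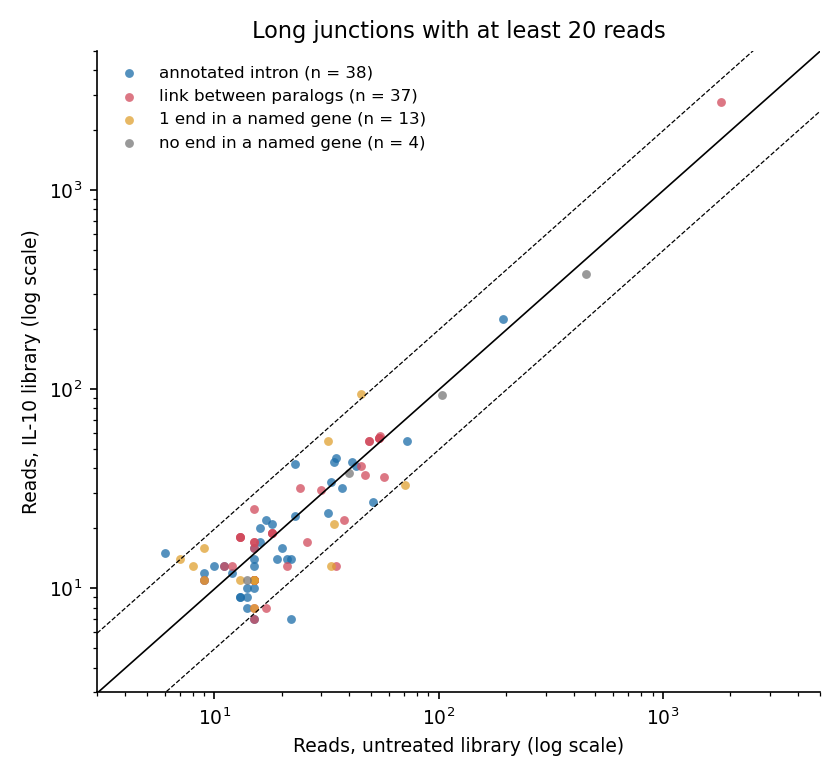
Reads of each long junction with at least 20 reads over both libraries, for untreated cells (x axis, log scale) and IL-10 (y axis, log scale), coloured by class. The solid line marks equal shares of the library totals and the dashed lines 2-fold differences. The 5 called junctions lie beyond a dashed line, as do a few with intervals that hold 1.

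Links between paralogs were dominated by tandem families. The H2-D1 to H2-Q7 link, between a classical and a nonclassical class I histocompatibility gene, had 2766 reads under IL-10 against 1810 in untreated cells, a ratio of 1.54 (1.45 to 1.64). It held 64.0% of all reads on paralog links. Paralog links summed to 4019 and 3136 reads (ratio 1.29), and without this link to 1253 and 1326 (0.954). No interval is given for these sums, because 69 of the 155 links have the same reads as another long junction at a shared end and may hold the same reads again. Of the 37 links with at least 20 reads, 0 were called higher and 1 (2.70%) lower, against 3.05% and 2.06% of all 44255 junctions with that many reads. With ends named by gene extents, 42 links had enough reads, of which 1 was called higher and 2 lower.

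By number of links, the largest family was that of the paired immunoglobulin-like receptors on chromosome 7 (Pirb, Pira2, Lilra6 and copies with clone names), with 33 links and 193 and 199 reads. Anxa11, a calcium-dependent phospholipid-binding annexin gene, and its copies Gm2260 and Gm2274 on chromosome 14 had 23 links with 510 and 473 reads. The Naip genes, whose products detect bacterial flagellin and secretion systems, had 20 links with 58 and 83 reads. Srp54a and Srp54c, for a subunit of the signal recognition particle, had 15 links with 233 and 290 reads. The Sirpb1 receptors had 13 links with 47 and 55 reads and the longest junction of the series, 489.1 kb. Tmem181 copies had 10 links (52 and 73 reads) and the interferon-inducible Ifi200 genes 10 (40 and 28). The remaining families had at most 4 links each.

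Some links had reads close or equal to those of the ordinary introns at their ends, but this did not hold for every link. The Sirpb1c to Sirpb1a link, described below, differed between the libraries in the opposite direction from the introns at its ends. The Srp54a to Srp54c junction printed above had 58 and 55 reads, next to 76 and 72 on the Srp54a intron at the same donor and 68 and 58 on the Srp54c intron at the same acceptor. The next Srp54 link (chromosome 12, 150638 bases) had 36 and 57, exactly the reads of the 334-base Srp54a intron at its donor. Among Anxa11, Gm2260 and Gm2274, 3 links of 1 exon pair all had 57 and 54 reads. Of the 155 links, 69 had the same reads in both libraries as another long junction at a shared end, against 0 of the 150 annotated introns. In 136 of the 155 links, a shorter junction was listed at the donor and another at the acceptor. In 12 links the long junction had more reads than the shorter junction at its donor.

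The sequences at the joints were compared for the 129 links whose ends both matched an annotated splice site exactly. The 15 bases before the joint were identical in the genes in 119 links, the 15 bases after it in 100, and both in 94. Runs of identity had a median of 80 bases before the joint, the longest looked at, and 79 after it. In 115 of the 129 links, the whole longest block that the reads covered on 1 side was identical to the exon that the partner gene has there. These 115 links had 1957 reads, and the other 14 had 4847, of which 4576 were on the H2-D1 to H2-Q7 link. Runs were followed for 80 bases at most, so a longer block could not count as wholly identical. Among the 14, Srp54a to Srp54c links of 113 and 19 reads and a Tmem181 link of 11 reads reached that limit. Their blocks on that side had 82 bases, so whether those were identical was not tested.

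The called link joins Sirpb1c to Sirpb1a, with 13 reads under IL-10 and 35 in untreated cells (ratio 0.375, 0.182 to 0.726). Runs of identical bases there reached 6 before and 8 after the joint, shorter than the longest aligned blocks of 48 and 82 bases. The Sirpb1c intron at the same donor had 31 and 18 reads and the Sirpb1a intron at the same acceptor 11 and 6. A junction that ends at the same acceptor and has no named donor under the main naming had 13 and 33 reads and was called lower as well (0.398, 0.192 to 0.776). By annotated gene extents its donor lies in Sirpb1b, another member of the family. Both share their acceptor, so they are not independent.

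Of the 80 junctions with 1 named end, 37 (554 reads) had that end in a family of linked paralogs, and 14 had it in Tmem181a. The most read started in Anxa11 (chr14:26694271-26975530), with 95 reads with IL-10 and 45 without, and was called higher (2.13, 1.48 to 3.11). By annotated gene extents its acceptor lies in Gm2274, which makes it a paralog link. H2-D1 to an unnamed acceptor (chr17:35400594-35607770) had 33 and 71 reads and was called lower (0.469, 0.301 to 0.719), with a shorter block of 22 bases in each library. The 3 calls in this class were 1 higher (7.69%) and 2 lower (15.4%) of 13 junctions with enough reads, against 3.05% and 2.06% of all junctions. With 13 junctions, some of which share an end, these shares are not read as a result on the class.

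Among the 57 junctions with no named end, the most read lay at chr14:3051698-3211023, with 380 reads with IL-10 and 453 without and a shorter block of 52 bases in each library. It was the only junction at its donor and at its acceptor. It could not be named here. The next 2 lay in the H2 region of chromosome 17, with 93 and 104 reads (35403860 to 35611134) and 38 and 40 reads (35403996 to 35521008), and with shorter blocks of at most 23 bases. Of the 57, 32 had 1 or 2 reads over both libraries.

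Within genes, 11 long junctions matched no annotated intron, and the sodium-calcium exchanger gene Slc8a1 had the most reads, 9 and 6, across 202.8 kb. Mitf, a transcription factor gene with several alternative first exons, had 5 of the 11. The annotated Mitf intron had 9 and 13 reads, and an intron with the same left end and 3 bases longer had 0 and 7. With offsets shared by other genes, the ends of this longer intron were those of an annotated intron of 133762 bases. The Msi2 junction given above, with 2 and 3 reads, is also among the 11. The part of length changes between the builds in these junctions was not tested. At Vti1a, a vesicle fusion gene, an intron 11 bases shorter than the annotated one had 0 and 7 reads next to 4 and 10. These counts are too low to order the alternatives.

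Markers were checked against the labelled cell type. Of 10 macrophage markers, 9 had at least 20 reads, 171005 in all with IL-10 and 184084 without. Of 8 neutrophil markers 4 did (951 and 882 reads, with S100a8, S100a9, Ly6g and Cxcr2 at 0), and of 8 fibroblast and mesothelial markers 5 (1258 and 1151). Of 5 T cell markers 0 had 20 reads (6 and 1 in all), of 5 B cell markers 1 (39 and 48) and of 5 eosinophil and mast cell markers 2 (96 and 59 reads). Genes with few introns can be at 0 because naming needs at least 2 introns of a gene. The part of these other cells in the long introns was not tested.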

How the data were processed

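RNA of each group was sequenced as 1 library, and the labels give insert sizes of 188 bp for IL-10 and 197 bp for untreated. The authors aligned reads to mm9 with TopHat and also used Cufflinks, both without a version, per the submitters' processing notes. The values used are the counts of reads across each junction in the deposited lists, without scaling, together with the aligned length on each side. An intron runs from the end of the left block to the start of the right block.

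GENCODE M21 is on GRCm38, so coordinates were not converted. A junction was annotated where chromosome, strand and exact length matched an intron, with the same offset (up to 20 Mb) for 2 or more introns of that gene. Other ends were named by an exact end shared with an annotated junction, or by the span of a gene's junctions, using offsets shared by at least 4 genes (or, failing that, by at least 5 introns of the gene), a limit set after the data were seen. Genes were paralogs where transcripts aligned at 80% or more over at least 50 bases (blastn 2.17.0) or symbols shared a root. Ratios used totals of all junction reads and exact conditional binomial (Clopper-Pearson) intervals; log2 ratios used a pseudocount of 0.5 reads. Calls and classes were tested on simulated data. The simulated counts had Poisson error only, and all simulated introns were moved by the same offset. Length changes between the builds and reads placed on several paralogs were therefore not covered.

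Members, lists and tests were chosen with earlier results of these data known. Named introns were the 20 with most reads, the 10 longest, the 10 farthest from a ratio of 1, those next to the threshold, the most-read links and other junctions, and list members with a long intron; some of these are given only as counts or are not reported here, and further names were chosen after their values were seen. Alternatives were other thresholds, read minimums, block lengths, offsets, paralog rules and scalings (TMM of edgeR 4.0.16, size factors of DESeq2 1.42.0). Python 3.11.15 and R 4.3.3 were used.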

Additional observations from a re-analysis of the deposited data

How the results depend on the processing

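With 1 library a group, no library could be left out. No paired analysis was possible because each group is 1 library and the labels carry no replicate numbers. Annotated introns numbered 265 at a threshold of 80 kb and 89 at 120 kb, and between 100 and 154 under the other settings. Links numbered 98 with at least 5 reads, 98 among junctions in both libraries, and between 107 and 188 otherwise. By symbol root alone 85 of the 155 links counted as paralogs, by alignment alone 154. With every offset of a gene naming ends, an alternative chosen after the data were seen like the naming by gene extents and the limit on the other introns, 103 links joined paralogs. Without the H2-D1 to H2-Q7 link the ratio of summed link reads was 0.954 in place of 1.29.

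Calls kept their numbers under the 3 other scalings, the 99% interval and a shorter block of at least 20 bases. With no minimum of reads 3 were higher and 8 lower (2 of the lower annotated), with at least 100 reads 1 and 1 (0 annotated). At 1.5-fold 4 were higher (1 annotated) and 6 lower (2 annotated), and at 3-fold 0 and 1. Long introns over the median of their gene stood at 1.65 with at least 20 reads on the long intron itself, a limit that favours high values. They stood at 0.776 with no minimum and at 0.424 with the limit on the other introns.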

Other observations

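The unnamed junction at chr14:3051698-3211023 (159326 bases, 380 and 453 reads) had a counterpart of the same length on the other strand with a lone read over both libraries. The paralog links were also less even than the annotated introns in how reads were spread, with 4576 of 7155 reads on 1 link against 419 of 2801 on the Dock2 intron.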
